A study of Mus musculus with 8 samples.

Results

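The genes described are the Wnt ligands, their Frizzled receptors and co-receptors, the R-spondins, the secreted Wnt antagonists and the feedback gene Axin2. They were chosen by gene symbol, with earlier results of these data known. The rule took every gene in the table named Wnt, Fzd, Sfrp, Dkk or Rspo with its number. Together with Lrp5, Lrp6, Lgr4, Lgr5, Ror1, Ror2, Wif1, Frzb and Axin2, this gave 50 of the 24980 genes. They comprise 19 Wnt ligands, 10 Frizzled receptors, 6 co-receptors and related receptors, 4 R-spondins, 10 secreted antagonists and Axin2. RNA was sequenced from mouse skeletal myogenic cells in 4 groups of 2 biological replicates each. Fresh teratoma-derived cells (TF) were sorted from teratomas that E14 embryonic stem cells carrying EGFP had formed in irradiated, cardiotoxin-injured muscles of NSG-mdx4Cv mice, which are immunodeficient and lack dystrophin. The sort kept cells that carried EGFP, α7-integrin and VCAM-1 and lacked the endothelial and blood cell markers CD31 and CD45. Expanded teratoma-derived cells (TE) were the same kind of cells after culture on gelatin to passage 8. Fresh satellite cells (SF) were sorted from adult muscle, where they are the resident stem cells, and expanded satellite cells (SE) were satellite cells at passage 8. The teratoma-derived groups thus rest on 1 stem cell line grown in injured, dystrophin-deficient muscle, and no strain or age of the animals that gave the satellite cells was in the labels. The authors compared the groups to look for genes behind the expandability and engraftability of the teratoma-derived cells, and the values below are the levels and changes of the Wnt pathway genes across the same groups.

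Wnt proteins are secreted, lipid-modified ligands that bind Frizzled receptors. In the canonical branch the Frizzled receptor pairs with Lrp5 or Lrp6, β-catenin escapes degradation and TCF/LEF factors switch on target genes, among them Axin2, whose protein feeds back to restrain the pathway. Other branches use the receptors Ror1 and Ror2 or planar polarity proteins and do not need β-catenin. R-spondins act through Lgr receptors to keep Frizzled receptors on the cell surface. Sfrp proteins, Frzb and Wif1 bind Wnt ligands outside the cell, while Dkk1 and Dkk2 block Lrp5 and Lrp6. In skeletal muscle, Wnt signals are known to act on satellite cell division, self-renewal and the passage to differentiation.

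Library totals lay between 11930881 and 21146554 counts. Levels are given as CPM, the counts of a gene scaled to a common library size after trimmed-mean (TMM) correction, with the value of replicate 1 before that of replicate 2, and a count of 3 in a library corresponded to between 0.141 and 0.252 CPM. A group in which neither library exceeded 3 counts was taken as being at the detection floor. The replicates of every group differed by more than counting noise. SF 1 stood apart, with 22138 genes holding at least 1 count against 15412 to 17955 in the other 7 libraries, and 18 of the 19 Wnt ligands exceeded 3 counts there against 11 in SF 2. The myogenic markers (8 of 8 above the floor in every library, with the sum from 1389 to 4236 CPM) were present throughout. Their levels were not constant. Pax7, Myf5 and Vcam1 were lower in each expanded group than in its fresh group, and Myod1, Myog, Itga7, Cdh15 and Des were higher. Vcam1 was at 250 and 337 CPM in TF and 39.1 and 40.4 in TE, and Myog at 86.0 and 94.0 in TF and 753 and 797 in TE. Fibroblast markers summed over 9 genes to 5189 and 5888 CPM in TF, 14.2 and 15.9 in TE, 1227 and 2100 in SF, and 35.3 and 84.7 in SE. TF 1 also held more blood cell marker RNA than TF 2 (402 against 38.7 CPM over 7 genes). Muscle fibre markers summed over 6 genes to between 152 and 523 CPM in the fresh libraries, 1275 and 1427 in TE, and 3270 and 7690 in SE. Among them Pvalb was lower in SE (0.236 and 2.29 CPM) than in SF (5.31 and 4.31). Ckm in SE (8.56 and 66.1 CPM) and Myh4 (54.4 and 179.8) lay below both SF libraries in SE 1 and above both in SE 2. In TE, Acta1 (757 and 814 CPM) and Mylpf (339 and 410) made up most of the sum. Myh1 (102 and 131 CPM in TE against 107 and 65.8 in TF) and Pvalb overlapped between TE and TF. The fresh and expanded groups thus differed in marker RNA of other cell types and of muscle fibres as well as in culture. In bulk RNA fewer cells of a type and less RNA per cell cannot be told apart.

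Promoter sequences were available for 33 of the 50 genes (36 promoters, RefSeq, mouse build GRCm38.p6). Each runs from 250 bases before to 50 bases after an annotated start and is printed on the strand of the gene. They were searched on both strands for CTTTGAT and CTTTGAA, forms of the core of the TCF/LEF sites through which canonical Wnt signals reach genes. Other forms of the core were not searched for. The forms searched occurred in 3 of the 36 promoters, against 8.65% of all 32851 promoters of the same length. The 3 were those of Dkk1, of the first annotated start of Wnt11 and of 1 of the 3 annotated starts of Wnt5b. These 3 are shown because they are the ones with a match, in capitals, at 117, 51 and 71 bases before the start. Axin2, Sfrp5 and Fzd4 are shown beside them because the results below turn on these genes, and none of these 3 windows held the letters. A match is a description of the letters and not a binding site. The E-box CAGCTG, a sequence that myogenic factors such as Myod1 recognise, occurred in the promoters of Frzb, Fzd10 and Wnt9a (3 of 36, against 16.3% of all promoters).
Dkk1, chr19:30549447-30549746, minus strand: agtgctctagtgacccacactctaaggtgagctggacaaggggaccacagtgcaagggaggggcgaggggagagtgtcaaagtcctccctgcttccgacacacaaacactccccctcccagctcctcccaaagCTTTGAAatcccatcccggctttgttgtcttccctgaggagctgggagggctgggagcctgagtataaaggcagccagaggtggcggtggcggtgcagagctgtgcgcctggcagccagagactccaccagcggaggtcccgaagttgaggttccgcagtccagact
Wnt11, chr7:98834862-98835161, plus strand: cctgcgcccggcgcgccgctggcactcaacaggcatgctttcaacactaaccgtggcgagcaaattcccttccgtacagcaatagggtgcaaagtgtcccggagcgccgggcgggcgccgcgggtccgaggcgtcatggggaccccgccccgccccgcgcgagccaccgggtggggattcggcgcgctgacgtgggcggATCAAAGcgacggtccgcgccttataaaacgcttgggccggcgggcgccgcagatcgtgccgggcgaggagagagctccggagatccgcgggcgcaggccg
Wnt5b, chr6:119449337-119449636, minus strand: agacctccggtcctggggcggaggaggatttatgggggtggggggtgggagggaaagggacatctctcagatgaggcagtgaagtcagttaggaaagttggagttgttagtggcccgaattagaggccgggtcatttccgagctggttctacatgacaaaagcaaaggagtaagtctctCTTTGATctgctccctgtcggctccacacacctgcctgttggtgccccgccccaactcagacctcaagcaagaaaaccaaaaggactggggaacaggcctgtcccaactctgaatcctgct
Axin2, chr11:108920099-108920398, plus strand: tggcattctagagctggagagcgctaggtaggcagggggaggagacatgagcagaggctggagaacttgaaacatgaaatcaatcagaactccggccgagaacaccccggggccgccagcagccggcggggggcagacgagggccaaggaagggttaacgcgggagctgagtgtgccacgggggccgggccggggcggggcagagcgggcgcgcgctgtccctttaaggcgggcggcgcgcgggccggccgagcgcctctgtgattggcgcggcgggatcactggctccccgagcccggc
Sfrp5, chr19:42202203-42202502, minus strand: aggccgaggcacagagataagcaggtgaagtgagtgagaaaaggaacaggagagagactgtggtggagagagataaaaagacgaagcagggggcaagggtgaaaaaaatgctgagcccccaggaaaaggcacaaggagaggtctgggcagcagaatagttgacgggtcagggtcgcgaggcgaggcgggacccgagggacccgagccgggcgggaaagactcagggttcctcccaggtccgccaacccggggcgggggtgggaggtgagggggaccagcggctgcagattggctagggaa
Fzd4, chr7:89404116-89404415, plus strand: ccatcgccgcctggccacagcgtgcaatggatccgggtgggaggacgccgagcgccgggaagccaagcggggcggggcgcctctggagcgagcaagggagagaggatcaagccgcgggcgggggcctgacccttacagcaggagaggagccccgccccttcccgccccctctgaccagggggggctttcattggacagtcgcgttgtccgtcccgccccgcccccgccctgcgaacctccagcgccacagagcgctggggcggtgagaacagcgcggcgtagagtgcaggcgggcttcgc

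All 50 genes had at least 1 count in some library. The filter on low counts kept 42 of them for testing, and 8 (Dkk4, Rspo4, Wnt1, Wnt2, Wnt3, Wnt7a, Wnt8a and Wnt9b) were not tested, none of which exceeded 2.62 CPM in any library. At the detection floor were 3 of the 50 genes in TF, 17 in TE, 0 in SF and 16 in SE, and 29 were above it in every group. The 0 in SF depends on SF 1, since 1 library above 3 counts was enough. Wnt7a, Wnt8a and Wnt9b had 22, 21 and 13 counts in SF 1 and 0 in SF 2. Wnt7b and Wnt10b, counted among the 29, also had 0 counts in SF 2. A difference was called at an adjusted p below 0.05 with the higher level more than 25% above the lower (the study's fold threshold) in edgeR's quasi-likelihood test over the 17582 tested genes. By that rule 26 of the genes differed between TE and TF, 3 higher and 23 lower, where 26.1% of all tested genes were called (9.86% higher and 16.2% lower). Between SE and SF 26 differed, 6 higher and 20 lower, against 40.7% of all tested genes (20.9% higher and 19.8% lower). The median log2 fold change over the 42 tested genes was -2.57 for TE versus TF and -2.12 for SE versus SF, beside -0.18 and -0.23 over all tested genes. Many of the 42 passed the filter through the group where they were high, so these counts and medians describe the genes and do not support a general shift. By these calls both expansions lowered 14 genes (Axin2, Dkk2, Fzd5, Fzd8, Lgr4, Lrp6, Ror1, Ror2, Rspo1, Sfrp1, Sfrp2, Sfrp4, Wif1 and Wnt11), raised 1 (Fzd2) and moved 2 in opposite directions (Fzd4 and Lrp5). Several of the calls were lost under alternatives given below. Among them were Dkk2 and Wnt11 in SE versus SF, and Fzd2, Fzd4, Fzd5, Lgr4 and Lrp5 in TE versus TF.

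The classes behaved differently. The summed level of the secreted antagonists was 400.4 and 389 CPM in TF, 3.18 and 10.6 in TE, 297 and 300.4 in SF, and 20.5 and 21.2 in SE, so the fresh and expanded libraries did not overlap. The Frizzled receptors together stayed within a narrow range, with 344 and 377 CPM in TF, 352 and 315 in TE, 251 and 255 in SF, and 284 and 278 in SE. The Wnt ligands summed to 144 and 169 CPM in TF against 50.4 to 81.8 in the other 6 libraries. Co-receptors went from 793 and 912 CPM in TF and 613 and 713 in SF to between 242 and 366 in the expanded groups. These sums were not tested, and they weigh each gene by its own abundance.

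**Figure D1:**
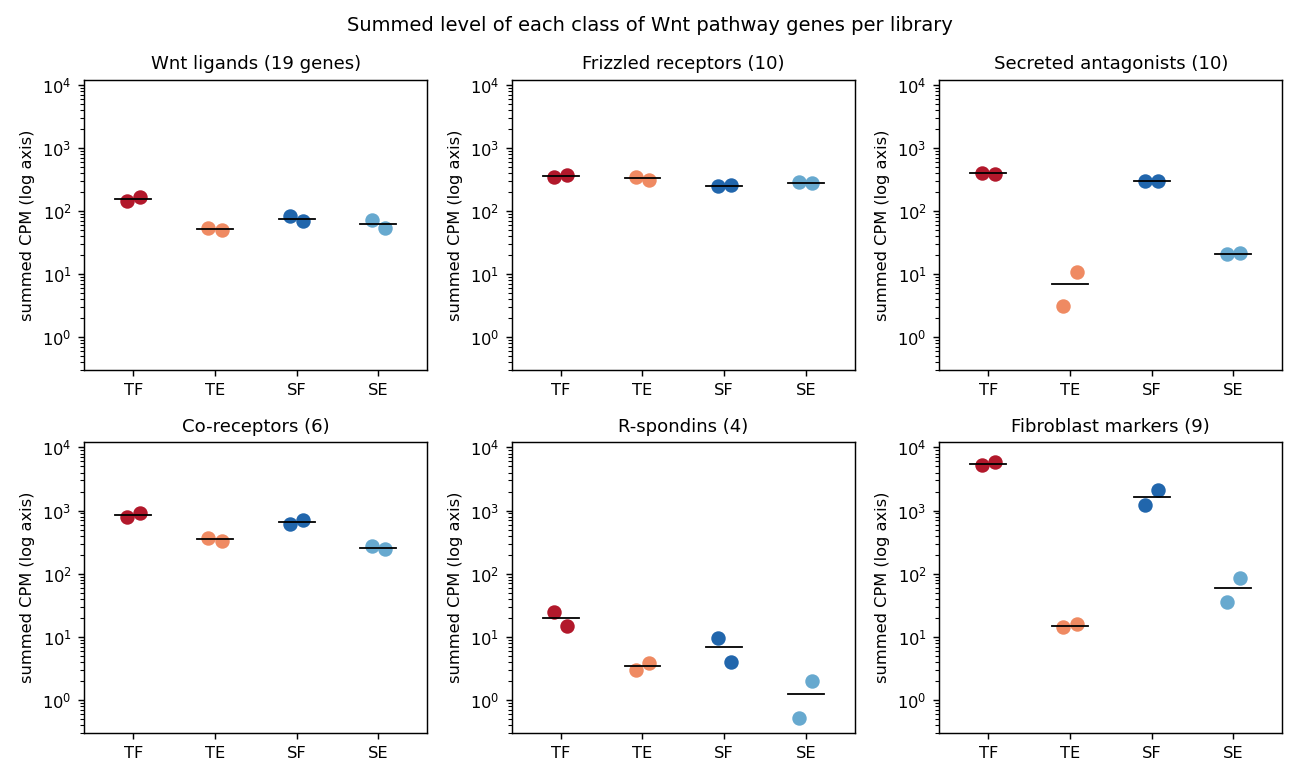
Summed CPM of each class of Wnt pathway genes and of 9 fibroblast markers in the 4 groups, on a log axis with the same range in every panel, where each point is a library and each bar is the mean of 2 libraries. The antagonist sum lies at 297 CPM or above in the 4 fresh libraries and at 21.2 CPM or below in the 4 expanded ones, the fibroblast markers move the same way, and the Frizzled sum stays between 251 and 377 CPM.

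**Figure D2:**
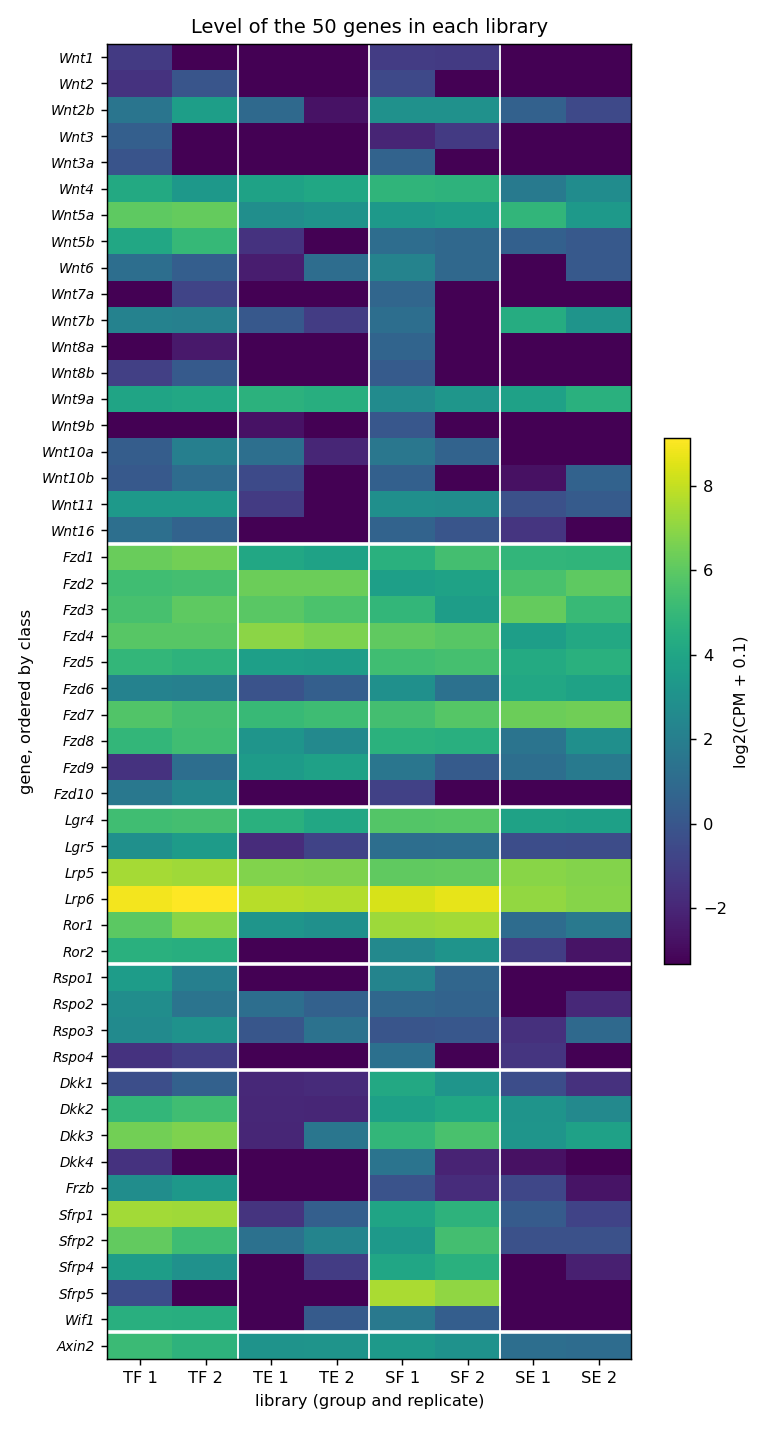
Level of each of the 50 genes, in rows ordered by class, in each of the 8 libraries, in columns, as log2(CPM + 0.1), with white lines between classes and groups. The darkest cells are counts of 0, and 17 genes in TE and 16 in SE were at the detection floor in both libraries.

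The Wnt ligands changed in kind with origin and culture. Compared per kilobase of the longest coding transcript, Wnt5b and Wnt5a led in TF (10.4 and 9.81 CPM per kilobase), Wnt9a and Wnt4 in TE (7.23 and 3.71), Wnt4 and Wnt9a in SF (6.48 and 2.36), and Wnt9a and Wnt7b in SE (5.602 and 4.31). Wnt5a, the prototype noncanonical ligand, was at 65.7 and 71.8 CPM in TF, 6.99 and 8.20 in TE, 10.1 and 12.1 in SF, and 29.1 and 10.1 in SE. Both TF libraries lay above all others. Wnt5a fell in TE versus TF (log2 fold change -3.18 ± 0.46, adjusted p = 0.000841) and was higher in TF than in SF (2.64 ± 0.45, adjusted p = 0.00298). For these and all fold changes below, ± gives an approximate standard error (SE, n = 2 libraries per group). Its calculation from the test statistic is given with the processing. Wnt5b, a relative of Wnt5a, was at 17.5 and 32.0 CPM in TF, 0.252 and 0 in TE, 2.11 and 1.75 in SF, and 1.32 and 1.03 in SE. Wnt5b was thus present in every group but nearly lost in TE, where it had 5 and 0 counts. It fell in TE versus TF (-7.52 ± 1.01, adjusted p = 0.00057) and was higher in TF than in SF (3.68 ± 0.80, adjusted p = 0.00999, or 0.0956 without TF 2). Wnt11, a ligand linked to cell movement and polarity, was at 10.01 and 10.5 CPM in TF, 0.353 and 0 in TE, 7.34 and 6.73 in SF, and 0.754 and 1.09 in SE, lower in both expanded groups. Its call in SE versus SF was lost without any 1 of the 4 libraries (adjusted p from 0.0659 to 0.11).

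Wnt4 and Wnt9a were the leading ligands of TE. Wnt4, which can act through either branch, was at 18.9 and 9.85 CPM in TF, 14.2 and 17.0 in TE, 28.0 and 26.3 in SF, and 3.44 and 6.59 in SE. It fell in SE versus SF, while TE stayed within the range of TF. Wnt9a was at 15.1 and 17.5 CPM in TF, 25.5 and 22.5 in TE, 6.395 and 9.29 in SF, and 13.8 and 23.4 in SE. Wnt9a rose in SE versus SF, a call lost without SF 1 or SE 2 and in a fit of only the 2 groups (adjusted p = 0.0701). It did not pass the test in TE versus TF (0.56 ± 0.36, adjusted p = 0.279). Wnt7b was at 4.46 and 4.15 CPM in TF, 0.958 and 0.363 in TE, 2.18 and 0 in SF, and 20.8 and 8.52 in SE. SE held the most Wnt7b, though the replicates there differed. The rise over SF was lost without SE 1 (adjusted p = 0.158), with median-ratio size factors (0.0629), in a fit of only the 2 groups (0.0768) and with glmTreat (0.0521), and the differences of SE from TE and TF did not pass the test (adjusted p = 0.0906 and 0.316). Wnt10a was at 1.18 and 4.07 CPM in TF, 2.27 and 0.156 in TE, 2.91 and 1.48 in SF, and 0 in both SE libraries, at least 14.02-fold lower than in SF, a call lost without SF 1, SE 1 or SE 2 (adjusted p from 0.0584 to 0.0694). The other 12 ligands were not called in any comparison, and the highest of them reached 12.4 CPM in 1 library.

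Among the Frizzled receptors the sum concealed an exchange of members. Per kilobase, Fzd1 led in TF (19.9 CPM per kilobase), Fzd2 in TE (21.9), Fzd7 in SF (10.9) and Fzd7 in SE (18.3). Fzd4, which serves both Wnt ligands and norrin, was at 59.5 and 59.8 CPM in TF, 125 and 100.4 in TE, 68.6 and 60.1 in SF, and 12.5 and 18.3 in SE. TF and SF differed little, and the expanded groups moved apart, TE above every fresh library and SE below. Fzd4 fell in SE versus SF (-2.06 ± 0.24, adjusted p = 0.000138) and was higher in TE than in SE (2.87 ± 0.24, adjusted p = 0.000231). Its rise in TE versus TF was lost without TF 1, TF 2 or TE 1 (adjusted p from 0.0689 to 0.137). Fzd2 was at 39.9 and 41.9 CPM in TF, 80.2 and 80.3 in TE, 12.9 and 14.1 in SF, and 46.7 and 64.5 in SE, and expansion raised it from both origins. The rise was 2.04 ± 0.23 in SE versus SF (adjusted p = 0.000115), and TF was above SF by 1.60 ± 0.23 (adjusted p = 0.00129). The call in TE versus TF was lost without TF 1, TE 1 or TE 2 (adjusted p from 0.0641 to 0.0668).

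Fzd1 was at 77.9 and 89.2 CPM in TF, 17.6 and 14.2 in TE, 23.5 and 41.7 in SF, and 28.6 and 27.8 in SE. It fell in TE versus TF (-2.39 ± 0.30, adjusted p = 0.000354) and was higher in TF than in SF (1.36 ± 0.29, adjusted p = 0.00867), whereas SE lay within the range of SF. Fzd7, the receptor for Wnt7a in satellite cells, was at 54.2 and 42.2 CPM in TF, 33.5 and 38.3 in TE, 42.4 and 56.7 in SF, and 80.7 and 85.4 in SE. SE was the high group, above TE by the test (TE versus SE -1.21 ± 0.23, adjusted p = 0.0118), a call lost without TE 1 (adjusted p = 0.124) or TE 2 (adjusted p = 0.0655). Fzd6 was at 4.46 and 4.23 CPM in TF, 0.807 and 1.246 in TE, 7.41 and 2.42 in SF, and 17.8 and 14.2 in SE, lower in TE than in SE (-3.95 ± 0.70, adjusted p = 0.00895, or 0.0542 without TE 1). Fzd3 was at 45.4 and 65.7 CPM in TF, 60.8 and 48.8 in TE, 29.8 and 11.96 in SF, and 73.4 and 33.2 in SE. Its rise in SE versus SF was lost without SF 2 or SE 1. It was also lost with median-ratio size factors (adjusted p = 0.0800), in a fit of only the 2 groups (0.0955) and with glmTreat (0.0556).

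Fzd5 and Fzd8 fell in both expansions. Fzd5 was at 30.04 and 26.4 CPM in TF, 12.9 and 12.1 in TE, 39.1 and 43.6 in SF, and 19.2 and 24.1 in SE, and each call was lost without some libraries (TF 1, TE 1 or TE 2 for the first, adjusted p from 0.0627 to 0.0985, and SF 2 or SE 1 for the second, adjusted p = 0.0715 and 0.115). Fzd8 was at 29.7 and 40.0 CPM in TF, 8.98 and 5.605 in TE, 24.4 and 22.9 in SF, and 2.69 and 7.26 in SE, and its calls held without any 1 library. Fzd9 was at 0.252 and 2.15 CPM in TF, 11.4 and 13.6 in TE, 2.83 and 1.08 in SF, and 2.12 and 3.26 in SE. TE lay above all other libraries, and the rise over TF was lost without TF 1, TE 1 or TE 2 (adjusted p from 0.0739 to 0.11). Fzd10 was at 3.03 and 5.26 CPM in TF, 0 in both TE libraries, 0.436 and 0 in SF, and 0 in both SE libraries. Its fall in TE was at least 27.0-fold and was called in the fit over all libraries. The call was lost with median-ratio size factors (adjusted p = 0.0504), a replicate block (0.0698) and glmTreat (0.0533). It was also lost without any 1 of the TF or TE libraries.

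**Figure D3:**
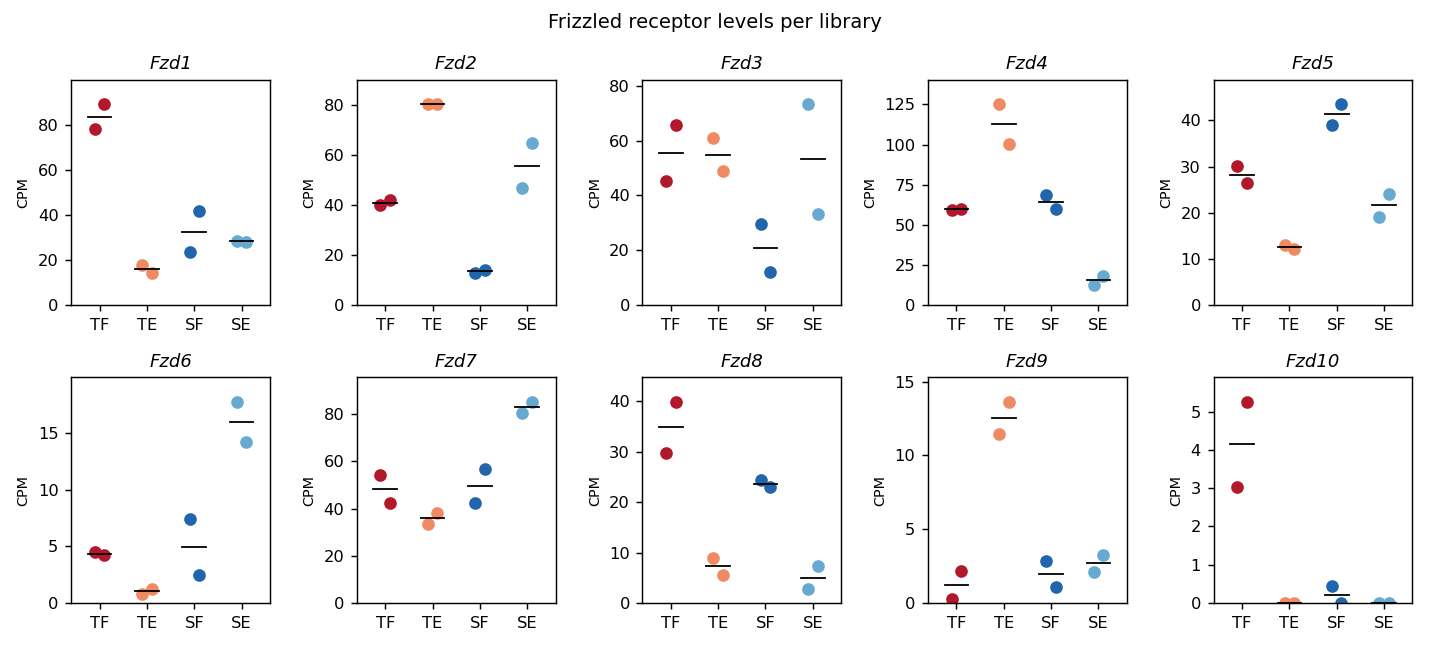
CPM of the 10 Frizzled receptors in the 4 groups, on linear axes from 0 with a separate range in each panel, where points are libraries and bars are means of 2 libraries. Fzd4 stands at 125 and 100.4 CPM in TE and 12.5 and 18.3 in SE, while Fzd7 is highest in SE and Fzd1 in TF.

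The co-receptors Lrp5 and Lrp6, which carry the canonical signal beside a Frizzled receptor, had the highest mean CPM of the genes over the 8 libraries. Lrp6 was at 484 and 556 CPM in TF, 224 and 204 in TE, 325 and 406 in SF, and 135 and 114 in SE, with no overlap between fresh and expanded libraries. It fell in TE versus TF (-1.28 ± 0.20, adjusted p = 0.00131) and in SE versus SF (-1.55 ± 0.20, adjusted p = 0.000263). TE remained above SE (0.78 ± 0.20, adjusted p = 0.0432), a call lost with a replicate block (0.0635) and with glmTreat (0.106). It was also lost without TF 1, TF 2, TE 1, TE 2 or SE 2. Lrp6 and Wnt5b lie on chromosome 6, whose 637 well-covered genes had a median log2 difference of 0.53 in TE versus SE and 0.76 in TF versus SF, beside -0.0019 and 0.22 for the other autosomes, and the part this had in their values was not tested. Lrp5 was at 175 and 162 CPM in TF, 109 and 104 in TE, 68.2 and 70.9 in SF, and 119.9 and 110.3 in SE. It was higher in TF than in SF (1.27 ± 0.17, adjusted p = 0.000933), and expansion drew the 2 origins together, down from TF and up from SF. The difference between the expanded groups did not pass the test (TE versus SE -0.11 ± 0.17, adjusted p = 0.806). The fall in TE versus TF was lost without any 1 of those 4 libraries and with glmTreat (adjusted p = 0.0548).

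Ror1 and Ror2, receptors for Wnt5a in the noncanonical branch, were far lower in the expanded groups than in the fresh ones. The part that other cells in the fresh groups had in this was not tested. Ror1 was at 63.8 and 119 CPM in TF, 8.78 and 7.58 in TE, 156 and 169 in SF, and 2.03 and 3.14 in SE. It fell by 3.48 ± 0.33 on the log2 scale in TE (adjusted p = 7.39e-05) and by 5.98 ± 0.38 in SE (adjusted p = 5.46e-06). TE kept more than SE (1.67 ± 0.34, adjusted p = 0.0175, or 0.0565 without TE 1 and 0.0894 in a fit of only the 2 groups). Ror2 was at 23.4 and 22.02 CPM in TF, 0 in both TE libraries, 5.74 and 8.61 in SF, and 0.377 and 0.0572 in SE. Its fall in TE was at least 148-fold (adjusted p = 0.000221), and it also fell in SE.

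Lgr4 and Lgr5 are receptors for R-spondins. Lgr4 was at 39.7 and 41.8 CPM in TF, 24.0 and 17.8 in TE, 55.5 and 56.9 in SF, and 14.3 and 13.3 in SE, and fell by 2.03 ± 0.24 in SE versus SF (adjusted p = 0.00018). The smaller fall in TE versus TF was lost without any 1 of those 4 libraries (adjusted p from 0.0533 to 0.219). Lgr5, a canonical target itself, was at 7.54 and 11.1 CPM in TF, 0.202 and 0.467 in TE, 2.13 and 2.20 in SF, and 0.677 and 0.632 in SE. Its fall in TE was lost without TF 2 (adjusted p = 0.0532), and SE versus SF did not pass the test (adjusted p = 0.126). Of the ligands for these receptors, Rspo1 was at 11.8 and 4.07 CPM in TF, 4.76 and 1.63 in SF and 0 in all 4 expanded libraries, at least 51.8-fold lower in TE than in TF (adjusted p = 0.00571) and at least 20.4-fold lower in SE than in SF (adjusted p = 0.00626). Rspo2 was at 6.81 and 2.63 CPM in TF, 2.12 and 1.35 in TE, 1.67 and 1.48 in SF, and 0 and 0.172 in SE. With 45 counts in SF against 3 in SE, its ratio was 20.3 (95% counting interval 6.51 to 102). The call was lost without any 1 of 7 libraries, SE 2 being the exception. A fit of only the 2 groups (adjusted p = 0.102), a replicate block (0.0771) and glmTreat (0.0543) lost it as well. Rspo3, the most abundant R-spondin in TE and SE per kilobase (0.55 and 0.33 CPM per kilobase), was not called in any comparison.

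The secreted antagonists separated fresh from expanded cells and, among the fresh cells, teratoma from satellite origin. Of the 10, 9 were tested (Dkk4 was not), and 7 fell in TE versus TF and 7 in SE versus SF, where 16.2% and 19.8% of all tested genes fell, while 0 rose and 5 fell in both. Some, such as Sfrp5 and Frzb, passed the filter through a fresh group where they were high. These counts therefore describe the genes and do not support a general shift. Sfrp1, the antagonist with the highest level in TF, was at 169.5 and 163 CPM in TF, 0.271 and 1.24 in TE, 15.2 and 26.0 in SF, and 1.11 and 0.458 in SE. It fell in TE versus TF (-7.79 ± 0.62, adjusted p = 2.84e-05) and in SE versus SF (-4.65 ± 0.57, adjusted p = 0.000188), and was higher in TF than in SF (3.01 ± 0.47, adjusted p = 0.00205). Sfrp2 was at 69.1 and 38.7 CPM in TF, 2.42 and 4.72 in TE, 10.6 and 42.5 in SF, and 0.754 and 0.743 in SE. It fell in both, in SE versus SF by 5.14 ± 0.73 (adjusted p = 0.000485), and was the leading antagonist left in TE (1.78 CPM per kilobase). Sfrp4 was at 12.03 and 7.66 CPM in TF, 0 and 0.363 in TE, 16.2 and 23.8 in SF, and 0 and 0.114 in SE. With 576 counts in SF against 2 in SE, its ratio was 389 (95% counting interval 107 to 3224).

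Sfrp5 was abundant in fresh satellite cells and in no other group. It was at 187 and 135 CPM in SF, 0.673 and 0 in TF, and 0 in both TE and both SE libraries, and was the most abundant antagonist of SF (84.7 CPM per kilobase). It was at least 1028-fold lower in SE than in SF (adjusted p = 4.07e-05) and was lower in TF than in SF (-8.90 ± 0.72, adjusted p = 0.000269), the latter with an adjusted p of 0.123 in DESeq2. Dkk1, a blocker of Lrp5 and Lrp6, was also highest in SF, at 18.0 and 8.95 CPM against 0.702 and 1.36 in TF, 0.170 and 0.190 in TE, and 0.656 and 0.237 in SE. It fell in SE versus SF and was lower in TF than in SF (-3.72 ± 0.91, adjusted p = 0.0161), a call lost without TF 1 (adjusted p = 0.0674) or SF 1 (adjusted p = 0.138).

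Dkk2 and Dkk3 nearly vanished in TE and were still present in SE. Dkk2 was at 29.7 and 39.9 CPM in TF, 0.165 and 0.156 in TE, 13.5 and 16.7 in SF, and 8.69 and 5.62 in SE. The 853 counts in TF against 6 in TE gave a ratio of 228 (95% counting interval 104 to 622, adjusted p = 1.24e-05), and the 282 counts in SE against those 6 a ratio of 47.5 (21.5 to 130, adjusted p = 0.0004). The difference between SE and SF was small (-1.08 ± 0.37, adjusted p = 0.0417) and was lost without any 1 of 7 libraries, SE 1 being the exception. It was also lost with no filter (0.0561), only the 2 groups compared (0.107), a replicate block (0.0621) and glmTreat (0.0621). TF was above SF (1.20 ± 0.37, adjusted p = 0.0403), a call lost without any 1 of the TF, TE or SF libraries. Median-ratio size factors (0.0659), DESeq2 (0.0668), a replicate block (0.0582) and glmTreat (0.0623) lost this call as well. Dkk3, a divergent member that does not act on Lrp5 or Lrp6 in the manner of Dkk1, was at 88.6 and 106 CPM in TF, 0.151 and 2.85 in TE, 29.7 and 46.3 in SF, and 8.77 and 14.01 in SE. It fell in TE versus TF (-6.02 ± 0.83, adjusted p = 0.000676) and was lower in TE than in SE (-2.92 ± 0.76, adjusted p = 0.0486, or 0.0587 without SF 1), a call that DESeq2 (0.0778), median-ratio size factors (0.0506), the fit of only the 2 groups (0.16) and glmTreat (0.0638) also lost. Its SE versus SF difference did not pass (-1.74 ± 0.67, adjusted p = 0.0635), and it was the leading antagonist of SE (3.39 CPM per kilobase).

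Frzb and Wif1 had their highest levels in TF, although TF versus SF did not pass the test for either (adjusted p = 0.0658 and 0.0685). Frzb was at 6.73 and 9.89 CPM in TF, 0 in both TE libraries, 0.799 and 0.202 in SF, and 0.519 and 0.0572 in SE, at least 54.1-fold lower in TE than in TF. Wif1 was at 23.1 and 22.1 CPM in TF, 0 and 1.09 in TE, 3.13 and 1.21 in SF, and 0 in both SE libraries, at least 13.9-fold lower in SE than in SF. Fibroblast markers moved with the antagonists. All 9 were above the floor in every fresh library, 6 and 3 of them in the TE libraries and 5 and 6 in the SE libraries, with Clec3b at 0 in all 4 expanded libraries and Lum at 0 in SE. The sum of 5 tendon markers also fell from between 515 and 578 CPM in fresh libraries to between 39.2 and 83.7 in expanded ones. Among these markers Scx went the other way, from 17.6 and 28.9 CPM in TF to 80.5 and 70.9 in TE. In satellite cells Scx went from 5.45 and 10.4 CPM in SF to 36.4 and 41.8 in SE. Endothelial markers fell from between 90.9 and 447 CPM to at most 5.42. The part of these cells in the antagonist levels was not tested.

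**Figure D4:**
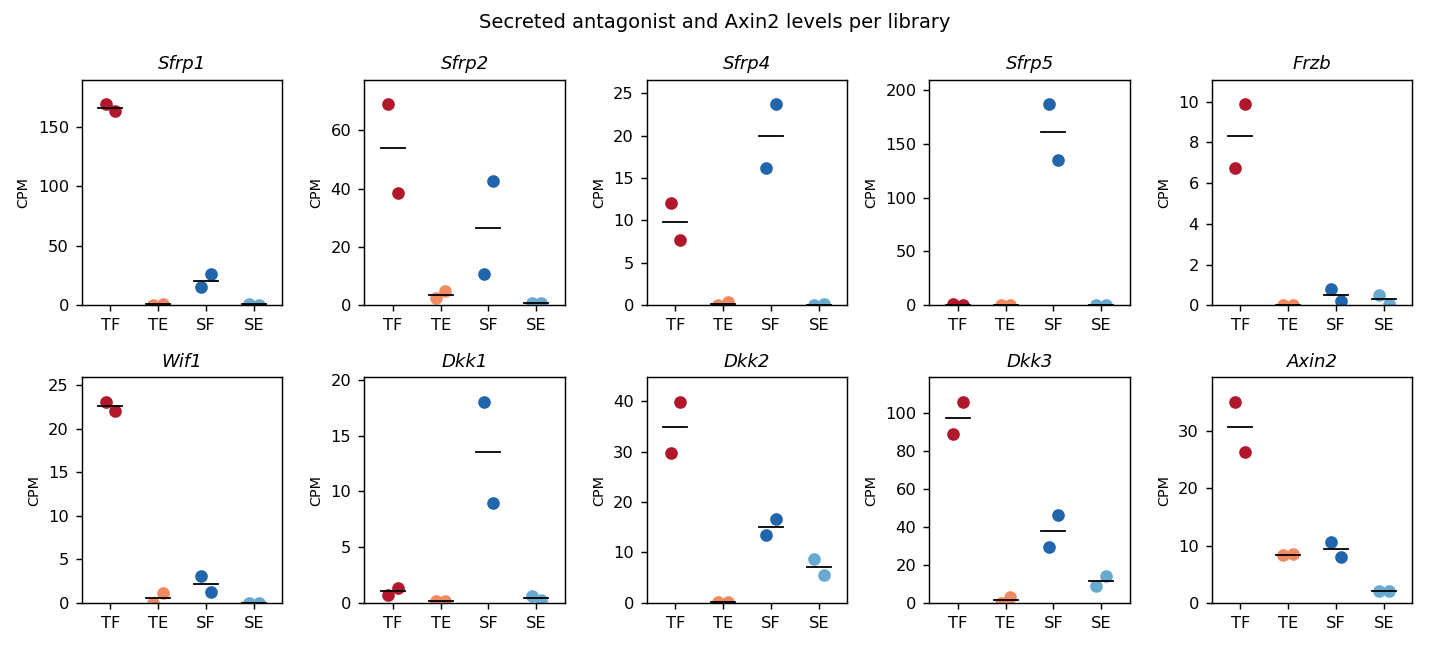
CPM of 9 secreted antagonists and Axin2 in the 4 groups, on linear axes from 0 with a separate range in each panel, where points are libraries and bars are means of 2 libraries. Sfrp5 is high only in SF (187 and 135 CPM), Sfrp1 is highest in TF, and Dkk2 is near 0 in TE but at 8.69 and 5.62 CPM in SE.

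Axin2, the feedback gene used as a general readout of canonical signalling, was at 35.1 and 26.3 CPM in TF, 8.27 and 8.56 in TE, 10.5 and 8.08 in SF, and 2.12 and 2.00 in SE. TF lay above all other libraries, TE and SF overlapped, and SE lay below all others. Axin2 fell in TE versus TF (-1.87 ± 0.37, adjusted p = 0.00503, or 0.0523 without TE 1) and in SE versus SF (-2.17 ± 0.38, adjusted p = 0.0017). It was higher in TF than in SF (1.72 ± 0.37, adjusted p = 0.00908, or 0.0724 without TF 1) and in TE than in SE (2.03 ± 0.38, adjusted p = 0.0121, or 0.0548 without TE 2). The fall was not shown to differ between the origins (difference 0.30 ± 0.51, adjusted p = 0.777).

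Between the fresh groups 10 of the genes differed, 8 higher in TF (Wnt5a, Wnt5b, Fzd1, Fzd2, Lrp5, Dkk2, Sfrp1 and Axin2) and 2 lower (Sfrp5 and Dkk1), where 24.2% of all tested genes were called (15.1% higher and 9.13% lower). Between the expanded groups 8 differed, 4 higher in TE (Fzd4, Lrp6, Ror1 and Axin2) and 4 lower (Fzd6, Fzd7, Dkk2 and Dkk3), against 7.21% of all tested genes (3.15% higher and 4.07% lower). As shares of the 42 tested genes, the first (23.8%) was near the background and the second was above it. Axin2 and Dkk2 were on both lists, with Dkk2 higher in TF than in SF and lower in TE than in SE. The Dkk2 call in TF versus SF was lost under the alternatives given above. TF was compared with SE as well, and 25 genes differed, 24 higher in TF and 1 lower (Fzd7), against 23.6% of all tested genes (14.5% higher and 9.16% lower). The 8 with the smallest adjusted p were Ror1 (5.15 ± 0.37, adjusted p = 1.57e-05), Sfrp1 (7.66 ± 0.61, adjusted p = 2.91e-05), Lrp6 (2.06 ± 0.20, adjusted p = 9.66e-05), Axin2 (3.89 ± 0.40, adjusted p = 0.000133), Fzd4 (1.95 ± 0.24, adjusted p = 0.00033), Sfrp2 (6.15 ± 0.76, adjusted p = 0.000352), Ror2 (6.61 ± 0.83, adjusted p = 0.000621) and Lgr4 (1.56 ± 0.24, adjusted p = 0.00145). Fzd7 was lower in TF (-0.78 ± 0.23, adjusted p = 0.0317), a call lost with glmTreat (0.0706). It was also lost without TF 1, TF 2, TE 1, TE 2 or SE 2. The comparisons share libraries, so they are not independent of each other.

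Expansion acted differently on 16 of the genes in the 2 origins, by a test of the difference itself (the log2 fold change of TE over TF minus that of SE over SF), where 14.3% of all tested genes were called (4.7% positive and 9.62% negative). For 13 of them the difference was negative and for 3, Fzd4, Ror1 and Wnt4, positive. Dkk2 had the smallest adjusted p (0.000315), with a loss in TE and little change in SE. Fzd4 differed by 2.98 ± 0.33 (adjusted p = 0.000638), rising from TF and falling from SF. The noncanonical ligands Wnt5a (-4.005 ± 0.62, adjusted p = 0.00304) and Wnt5b (-6.81 ± 1.22, adjusted p = 0.00613) fell in TE while their SE versus SF change did not pass the test. Lrp5 differed by -1.38 ± 0.24 (adjusted p = 0.00497) and Fzd1 by -2.18 ± 0.40 (adjusted p = 0.00697). Ror1 differed by 2.49 ± 0.45 (adjusted p = 0.00632), since its fall was larger in satellite cells. Dkk3 differed by -4.28 ± 1.003 (adjusted p = 0.0206, or 0.0616 without SF 1 and 0.0511 with DESeq2). Of the 14 genes that fell in both origins, Dkk2, Ror1, Ror2 and Sfrp1 passed the test of the difference and the other 10 did not, among them Lrp6 at 0.27 ± 0.28 (adjusted p = 0.584), Lgr4 at 1.06 ± 0.33 (adjusted p = 0.0635) and Axin2 as above.

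**Figure D5:**
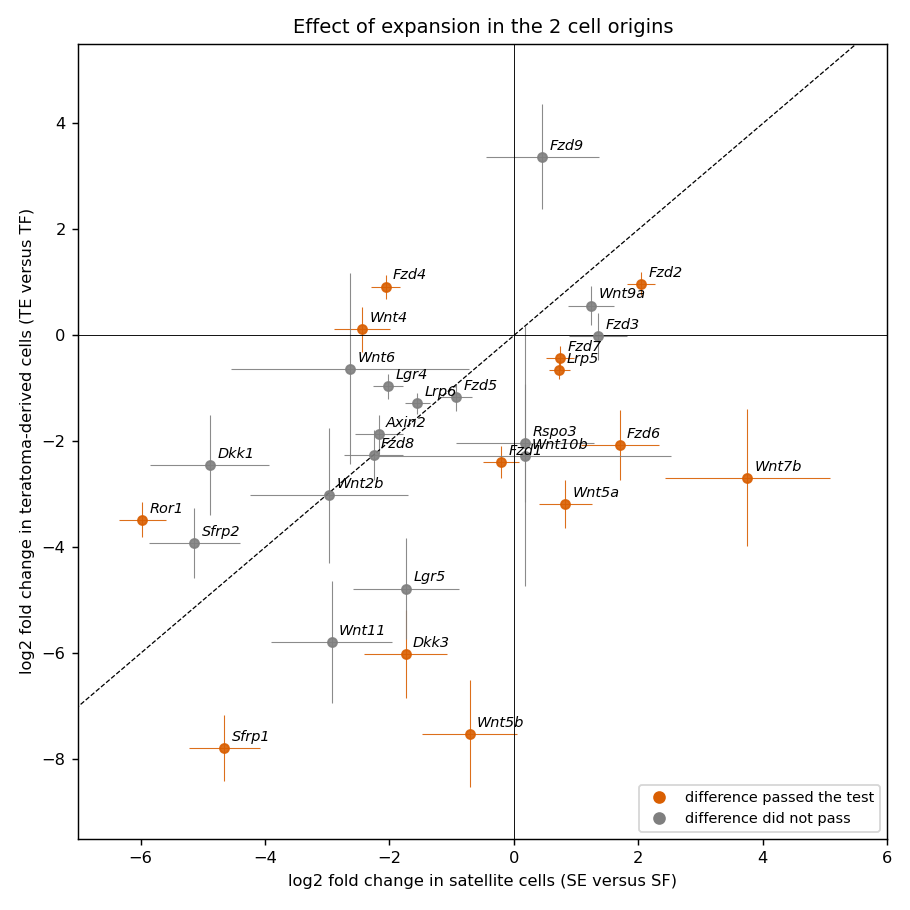
Log2 fold change on expansion in teratoma-derived cells (vertical axis) against that in satellite cells (horizontal axis) for the 29 genes above the detection floor in every group. Bars give the approximate standard error, and the dashed line marks where both are equal. Genes in orange passed the test of the difference, with Fzd4, Ror1 and Wnt4 above the line and Wnt5a, Wnt5b, Dkk3, Fzd1 and others below it.

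The rest of the pathway was followed through 5 lists of genes, whose counts stand beside 9.86% of all tested genes higher and 16.2% lower in TE versus TF, and 20.9% higher and 19.8% lower in SE versus SF. Of 16 genes of Wnt secretion and extracellular control, 0 rose and 7 fell in TE versus TF (26.1% of all tested genes were called either way), and 3 rose and 4 fell in SE versus SF (40.7%). Gpc3, a glypican that binds Wnt ligands at the cell surface, was at 433 and 502 CPM in TF, 133 and 136 in TE, 74.1 and 84.0 in SF, and 0.896 and 1.89 in SE. It was higher in TE than in SE by 6.61 ± 0.33 (adjusted p = 1.55e-05). Wls, which carries Wnt ligands to the cell surface for secretion, rose in SE versus SF (1.70 ± 0.18, adjusted p = 7.61e-05), to 124 CPM in both libraries from 37.5 and 38.7. Cthrc1, a secreted protein that favours the planar polarity branch, was at 33.4 and 44.9 CPM in TF, 0 in both TE libraries, 0.872 and 0 in SF, and 84.5 and 18.0 in SE, so TE was at least 255-fold below TF and at least 334-fold below SE.

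Of 18 cytoplasmic genes of the canonical branch, 2 rose and 2 fell in TE versus TF (26.1% of all tested genes called). In SE versus SF 6 rose and 3 fell (40.7%), and neither share was tested against its background. Frat2, an inhibitor of the kinase that marks β-catenin for degradation, was at 19.5 and 14.1 CPM in TF and 0.403 and 0.801 in TE (-4.81 ± 0.55, adjusted p = 0.00023). Frat2 fell in SE versus SF as well (-2.66 ± 0.49, adjusted p = 0.00208). Csnk1d, a casein kinase, fell in SE versus SF (-1.74 ± 0.19, adjusted p = 9.77e-05). Of 13 nuclear genes found in the table, 3 rose and 2 fell in TE versus TF (26.1% of all tested genes called), and 5 rose and 2 fell in SE versus SF (40.7%). The co-repressor Tle4 fell in both, by 2.45 ± 0.36 in TE (adjusted p = 0.000948) and by 3.56 ± 0.37 in SE (adjusted p = 8.21e-05). Lef1, one of the factors that carry β-catenin to DNA, rose in TE versus TF from 4.80 and 2.247 CPM to 36.2 and 32.4 (3.29 ± 0.82, adjusted p = 0.0158, or 0.0547 without TF 2). Ctnnbip1, which keeps β-catenin from these factors, rose in SE versus SF (3.08 ± 0.42, adjusted p = 0.000351).

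Of 16 planar polarity and noncanonical genes, 2 rose and 4 fell in TE versus TF (26.1% of all tested genes called), and 4 rose and 6 fell in SE versus SF (40.7%). Ptk7, a receptor of the polarity branch, was at 159 and 164 CPM in TF, 157 and 147 in TE, 14.5 and 14.8 in SF, and 203 and 202 in SE. Fresh satellite cells were alone in their low level, and Ptk7 rose in SE versus SF (3.79 ± 0.18, adjusted p = 1.86e-06). The formin Daam2 fell in both, by 2.38 ± 0.28 in TE (adjusted p = 0.000261) and by 2.96 ± 0.29 in SE (adjusted p = 5.26e-05). The polarity gene Prickle2 fell in TE by 3.64 ± 0.40 (adjusted p = 0.00018) and also in SE versus SF (-2.29 ± 0.38, adjusted p = 0.00119).

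Of 19 tested feedback and target genes, which include Axin2, Lgr5 and Dkk1, 2 rose and 9 fell in TE versus TF (9.86% of all tested genes rose and 16.2% fell), and 4 rose and 8 fell in SE versus SF (20.9% and 19.8%). They did not move as 1 group. Tnfrsf19 fell in TE versus TF (-5.15 ± 0.53, adjusted p = 0.000121), from 92.9 and 78.3 CPM to 3.03 and 1.76. Its fall in SE versus SF was smaller (-1.34 ± 0.46, adjusted p = 0.0412). Id2, a target of BMP signals as well, was at 4.34 and 2.28 CPM in TE against 123 and 69.0 in SE (TE versus SE -4.86 ± 0.44, adjusted p = 0.000348). Nkd1, a feedback inhibitor, was higher in TE than in SE (2.09 ± 0.42, adjusted p = 0.0175), at 36.8 and 39.3 against 10.7 and 7.14 CPM. Ccnd1, a cyclin of the G1 phase that many growth signals raise, rose in SE versus SF (3.93 ± 0.42, adjusted p = 9.45e-05). The SE replicates differed, at 607 and 249 CPM, against 24.2 and 31.9 in SF. Ccnd1 also rose in TE versus TF (1.95 ± 0.39, adjusted p = 0.00567). Myc fell in SE versus SF (-4.42 ± 0.28, adjusted p = 5.46e-06), from 798 and 1065 CPM to 52.8 and 34.3. Its fall in TE versus TF was smaller (-1.44 ± 0.25, adjusted p = 0.00251). Bambi fell in SE versus SF (-3.94 ± 0.46, adjusted p = 0.000141) and in TE versus TF (-3.06 ± 0.44, adjusted p = 0.000829).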

How the data were processed

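RNA was sequenced from both ends with a stranded total RNA kit for small inputs. The authors deposited 1 table of estimated counts per gene symbol, not normalized, which the submitters' processing notes tie to kallisto 0.44.0, CASAVA and the builds GRCm38 and mm10. Reads shared between similar genes may have been split between them. Groups and replicate numbers came from the sample titles and descriptions. After rounding to integers, filterByExpr kept 17582 of 24980 genes. TMM scaling preceded a quasi-likelihood fit in edgeR, which held all 4 groups and no replicate term and gave 6 contrasts with Benjamini-Hochberg adjustment over all tested genes. The common dispersion was 0.233. Each value after ± is the absolute log2 fold change divided by the square root of the F statistic of its test. It approximates the standard error and was not taken from the fit itself. Against a group with no counts, a fold is a lower bound computed from 3 counts per library, and with 1 to 3 counts per library it is a ratio with an exact 95% interval. Bounds and intervals cover counting error only.

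The genes and lists were chosen with earlier results of these data known. Library values are given for every gene called in at least 1 comparison. Where more than 12 genes were called, full statistics go to the 8 with the smallest adjusted p, and of the pathway lists at most 4 genes per list and comparison are named. Positions and transcript lengths came from GENCODE M21, which matched 50 of 50 genes, and promoter sequences from RefSeq. The alternatives were median-ratio size factors, no filter, DESeq2, only the 2 groups compared, a block for the replicate number, glmTreat at the study's fold threshold, and each library left out. With 1 library left in a group, that library is assumed to vary like the others. The alternatives for the counts of the pathway lists were chosen after seeing the data. Versions were R 4.3.3, edgeR 4.0.16 and DESeq2 1.42.0.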

Additional observations from a re-analysis of the deposited data

Results flagged for a closer look

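The effect of expansion differed between teratoma-derived and satellite cells, by the test of the difference itself, in 16 of the genes. The log2 difference (TE over TF minus SE over SF) was positive for Fzd4 (2.98), Ror1 (2.49) and Wnt4 (2.56). It was negative for Dkk3 (-4.28), Fzd1 (-2.18), Fzd2 (-1.07), Fzd6 (-3.78), Fzd7 (-1.17), Lrp5 (-1.38), Sfrp1 (-3.14), Wnt5a (-4.005), Wnt5b (-6.81) and Wnt7b (-6.44). For Dkk2, Frzb and Ror2, which were at the detection floor in TE, the direction was also negative, and the adjusted p was 0.000315, 0.0329 and 0.0279.

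Of these, the difference was lost (adjusted p of 0.05 or more) without TF 2 or TE 2 for Wnt4 (0.0568 and 0.0598), without TE 1 or SE 1 for Fzd6 (0.0755 and 0.0554), without SF 1 or SE 1 for Sfrp1 (0.0643 and 0.127), and without SF 1 for Dkk3 (0.0616). It was lost without TE 1, TE 2 or SE 1 for Wnt7b (0.0526 to 0.0904), without TE 1, TE 2, SF 1 or SE 1 for Ror2 (0.0539 to 0.181), without any library but SF 1 and SE 2 for Frzb (0.0561 to 0.134), without any library but SE 1 for Fzd2 (0.0562 to 0.209), and without TF 1, TF 2, TE 1, TE 2 or SF 1 for Fzd7 (0.0559 to 0.182). Dkk2, Fzd1, Fzd4, Lrp5, Ror1, Wnt5a and Wnt5b kept the call without any 1 library. Besides the libraries, DESeq2 lost the difference for Dkk3 (0.0511) and Fzd2 (0.0655), median-ratio size factors for Fzd2 (0.0713), Fzd7 (0.0519) and Wnt7b (0.0558), and glmTreat for Fzd2 (0.0775), Fzd7 (0.0588) and Wnt7b (0.0517).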

How the results depend on the processing

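Of 111 called pairs of gene and comparison, 64 kept the call under every alternative run (at most 14), 26 lost it only when a library was left out, the others under at least 1 other setting, and 0 changed direction. In TE versus SE, 8 genes were called, 17 without the filter on low counts and 16 with DESeq2. In TF versus SF, 10 were called and 17 without the filter. Leaving out 1 library gave 18 to 27 genes for TE versus TF, 20 to 26 for SE versus SF, 8 to 16 for TF versus SF, 5 to 11 for TE versus SE, 19 to 27 for TF versus SE and 10 to 16 for the difference between the expansions. Over all tested genes, 1268 were called in TE versus SE, against 2260 without the filter, 2117 with DESeq2, and 666 and 653 without TE 1 and TE 2. Without TE 1 or TE 2 the count fell from 4581 to 2759 and 2739 in TE versus TF and from 2517 to 1473 and 1467 for the difference. Without TF 1 or TF 2 it fell from 4261 to 2639 and 2671 in TF versus SF, and without TF 1 from 4155 to 2772 in TF versus SE. The causes were not tested. Of 415 counts of the pathway lists under alternatives, 72 moved by over 1.5 times.

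Replicate numbers are shared between groups, but the deviations of same-numbered libraries from their group means correlated between -0.020 and 0.032, so the numbers were not taken as pairs. With a replicate block 24 genes were called in TE versus TF, 25 in SE versus SF, 11 in TF versus SF, 7 in TE versus SE, 24 in TF versus SE and 15 for the difference, where Fzd2 was lost (adjusted p = 0.0591). Under median-ratio size factors the all-gene median shifted by -0.19 in SE versus SF, -0.16 in TF versus SF and 0.14 in the difference. The share of higher calls among all genes then went from 62.3% to 52.1% in TF versus SF. Each group has 2 libraries, and values of a few counts per library carry a large counting error.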
